A study of Mus musculus with 4 samples.

Results

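The genes described here are Gdf9, Bmp15, Bmp6 and Fgf8, growth factors that the oocyte releases toward the follicle cells around it. Their probes were found by gene name among the spots other than controls in the scanner files. These 4 genes had 6 probes in 15 spots on each array, of 41174 probes in 43379 spots in all. After a filter on dim probes 3 of the 4 were among the 6917 genes tested, and Bmp6 was not. Mouse oocytes were exposed to a hydrostatic pressure of 20 MPa for 60 min at 37 °C, and control oocytes were handled alike but never pressurised. By the labels, on each of 4 arrays, RNA of a treated pool of 50 oocytes was in the red channel (Cy5) and RNA of a control pool of 50 oocytes in the green channel (Cy3). RNA came from pools, amplified from 240 pg of total RNA in a procedure with repeated rounds, so no value belongs to a single oocyte. Strain, age and meiotic stage are not given in the sources used here.

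GDF9 and BMP15 belong to the transforming growth factor beta family and are made almost only by germ cells in the ovary. They are secreted as precursors, cleaved by proprotein convertases, and bind serine/threonine kinase receptors on granulosa and cumulus cells, which then phosphorylate SMAD proteins. They are known for follicle growth and for the expansion of the cumulus, and BMP6 is a further member of the same family that oocytes express. FGF8, a fibroblast growth factor, acts through receptor tyrosine kinases and is known to cooperate with BMP15 in driving glycolysis in cumulus cells.

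The probes are oligonucleotides of 60 bases, and the array reads each gene only through them. The first 30 bases of each, read from the scanner files, are shown because the results below differ between probes of the same gene. They are in lower case throughout since no part of them is singled out.
Gdf9 A_51_P220806: acagatttgttagcataagtctcgagtaga
Bmp15 A_52_P386639: atgtggatctattccttagcatcattttgc
Fgf8 A_51_P101975: ggcacagcaaaggggaggggctggggagct
Fgf8 A_52_P296244: cagtcctcacctaattttacacagcatgtg
Bmp6 A_52_P413646: tgtctactgttgtagttacgtgttttgtgt
Bmp6 A_52_P468441: ccaaacctttcttatcagcatttaccaagt
By the coordinates in the files (build mm7), the Gdf9 probe lies at 53394562 to 53394621 on the plus strand of chromosome 11. The Bmp15 probe lies at 4788993 to 4789052 on the minus strand of chromosome X. The Fgf8 probes lie on the minus strand of chromosome 19, A_51_P101975 at 45633777 to 45633836 and A_52_P296244 at 45638514 to 45638573. The Bmp6 probes lie on the plus strand of chromosome 13, A_52_P413646 at 37918503 to 37918562 and A_52_P468441 at 37888649 to 37903792. The last of these covers 15144 bases of the genome with 60 bases of probe, so its parts lie in separate blocks of the genome. Exon and UTR annotation of this build was not used here. The G and C content of the probes ran from 35.0% for Bmp15 to 55.0% for the Fgf8 probe A_51_P101975, which is printed in 10 spots on each array whereas the other probes have 1 spot each.

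The treated pool was in the same dye on all 4 arrays, so treatment and dye cannot be told apart. Replicate 1 stood apart from the other arrays. The log2 ratios of those arrays correlated only weakly among themselves across probes. Their r was 0.086 for replicates 2 and 4, 0.23 for 3 and 4, and 0.29 for 2 and 3. The log2 ratios of replicate 1 correlated with theirs at r of -0.19 to -0.15. Net signal at percentile 99 of each channel, treated divided by control, was 2.56 there and 0.25 to 0.39 on the others. Whether the dyes of that array were exchanged against its label cannot be told from these values, so results are also given with the sign of replicate 1 reversed. Per array, 7049 to 11155 treated and 8309 to 10837 control spots passed the scanner software's test of being well above background. Ratios below are log2 of treated over control, after background correction and a loess fit that removes the dependence of the ratio on intensity. A positive value means a higher level in treated pools. The number of oocytes was set at 50 per pool. For any other cells present in such bulk RNA, fewer cells of a type and less RNA per cell cannot be told apart. The 4 arrays limit the precision, and the replicates are called biological without word of separate animals, so the p-values measure the spread between these arrays.

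Among the 6917 genes tested, 0% passed as higher and 0% as lower in treated pools (limma, adjusted p under 0.05), and of the 3 growth factors with a tested probe 0 passed. Without adjustment 290 genes were under 0.05 in the reported setting, and none of the 3 was among them. A log2 ratio above 0 on all 4 arrays was seen for 2.94% and below 0 on all 4 for 9.35% of the 6865 genes with 4 values. With the sign of replicate 1 reversed these shares were 15.5% and 12.5%. Gdf9, Bmp15 and Fgf8 each had both signs. The mean lay above 0 for 47.5% and below 0 for 52.5% of tested genes. It was above 0 for Gdf9 and Bmp15 and below 0 for Fgf8.

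Gdf9, whose loss stops mouse follicles early in their growth, gave a bright spot in both channels of every array, and no difference between treated and control pools was resolved. Its scanner intensity in treated pools was 89671, 5209.5, 29593 and 22033 on replicates 1 to 4. In control pools it was 21172, 7678, 71603 and 109583 in the same order. The treated pool was the brighter on replicate 1 alone, and replicate 2 was the dimmest array in both channels. Intensity varied 17.2-fold between arrays within the treated pools and 14.3-fold within the control pools, and the 2 ranges overlapped over most of their length. After normalization the log2 ratio was 0.44, 0.66, 1.18 and -0.37 on replicates 1 to 4. Thus 3 of 4 arrays were above 0 and replicate 4 below. The mean was 0.48 ± 0.64 (SD, n = 4), a ratio of 1.39 with a 95% interval of 0.850 to 2.28, and limma's adjusted p was 0.93. An exact two-sided sign-flip test over the arrays gave p = 0.25, where the smallest p that 4 arrays allow is 1 in 8, so that 0.05 is out of reach. The sign was not stable to the processing: it was -0.37 with median centring in place of loess, which moved the median of all genes to -0.34, and -0.044 with the scanner software's processed signals. With the sign of replicate 1 reversed it was 0.26. With array weights it was 0.66, with limma's unadjusted p at 0.024 and adjusted p at 0.39. In that setting 829 genes were under an unadjusted 0.05 and 0 passed. Of 15 alternatives 12 kept the sign of Gdf9 and 3 reversed it.

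Bmp15, the X-linked partner of GDF9, was likewise well above background in both channels of all 4 arrays. Its intensity in treated pools was 55662, 14142, 3877 and 29074 on replicates 1 to 4. In control pools it was 16792, 64452, 10809 and 32900.3. Replicate 3 was the dimmest array in both channels, and the treated pool was again the brighter on replicate 1 alone. Between arrays the intensity varied 14.4-fold in treated and 5.96-fold in control pools. The normalized log2 ratio was 0.13, -0.97, 0.68 and 1.71 on replicates 1 to 4. Replicate 4 was the highest and replicate 2 the only one below 0. The mean was 0.39 ± 1.12 (SD, n = 4), a ratio of 1.31 with a 95% interval of 0.607 to 2.82, with limma's adjusted p at 0.93 and an exact sign-flip p of 0.625. Of the genes with 4 values, 10.4% had a larger SD over the arrays than Bmp15 and 37.7% a larger one than Gdf9, beside a median SD of 0.52. Without replicate 4 the Bmp15 ratio was -0.056, with array weights -0.26 and with median centring -0.38. With processed signals it was 0.10, and with the sign of replicate 1 reversed 0.32.

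**Figure D1:**
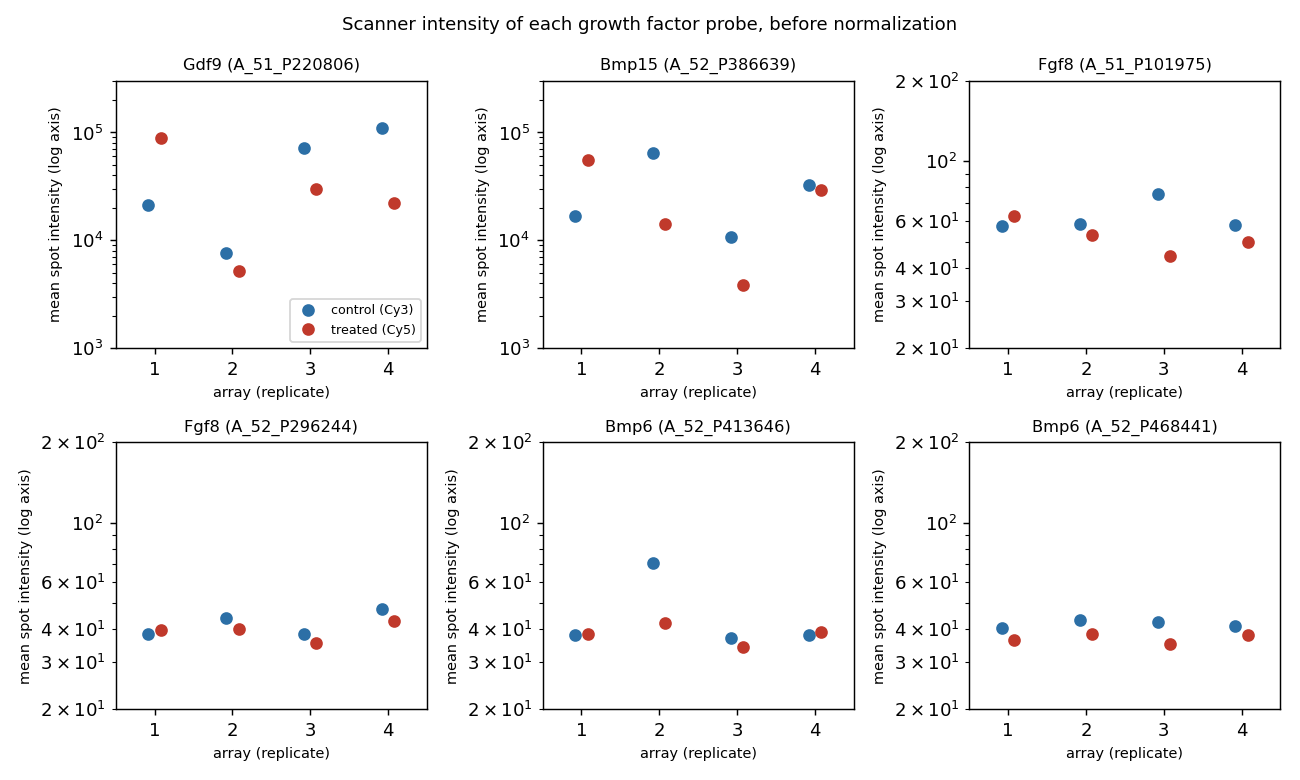
Mean scanner intensity (log axis) of each growth factor probe on 4 arrays, control pools in blue and treated pools in red, before any normalization and with no replicate averaging except over the spots of A_51_P101975. The Gdf9 and Bmp15 panels run from 3877 to 109583, the panels of Fgf8 and Bmp6 from 34.3 to 75.7.

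The low and high arrays were not the same for both factors. Gdf9 was dimmest on replicate 2, where the control pool had its brightest Bmp15 spot at 64452. Bmp15 was dimmest on replicate 3, where Gdf9 was at 29593 in treated and 71603 in control pools. On the scale used for levels (log2, after loess and a scaling of average intensity between arrays), Gdf9 was at 15.07 ± 1.36 in treated and 14.60 ± 1.37 in control pools (SD, n = 4). Bmp15 was at 14.53 ± 0.76 in treated and 14.14 ± 1.05 in control pools (SD, n = 4). The mean treated and control levels of each gene thus lay within 1 SD of each other. These SDs ignore the pairing of pools on each array, which the ratios above use. The Gdf9 ratio minus the Bmp15 ratio was 0.31, 1.63, 0.50 and -2.08 on replicates 1 to 4. Its mean was 0.09 ± 1.56 (SD, n = 4; exact two-sided sign-flip p = 0.875), and the arrays spread far more widely than this difference. Its sign turned under 5 of 10 alternatives.

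The size of the loess correction at these bright spots exceeded the mean ratios that it left. Before loess the Gdf9 log2 ratio was 2.08, -0.56, -1.27 and -2.31 on replicates 1 to 4, and the fit removed 1.64, -1.22, -2.45 and -1.94. For Bmp15 the ratio before loess was 1.73, -2.18, -1.47 and -0.18, and the fit removed 1.60, -1.21, -2.15 and -1.89. Before loess both genes were above 0 on replicate 1 and below 0 on the other 3 arrays, with means of -0.52 ± 1.88 for Gdf9 and -0.53 ± 1.72 for Bmp15 (SD, n = 4). The overall balance of the channels, given above at percentile 99, ran in the same direction on each array. After loess the SD was 0.64 for Gdf9 and 1.12 for Bmp15, and replicate 1 was no longer the single array above 0 for either gene.

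**Figure D2:**
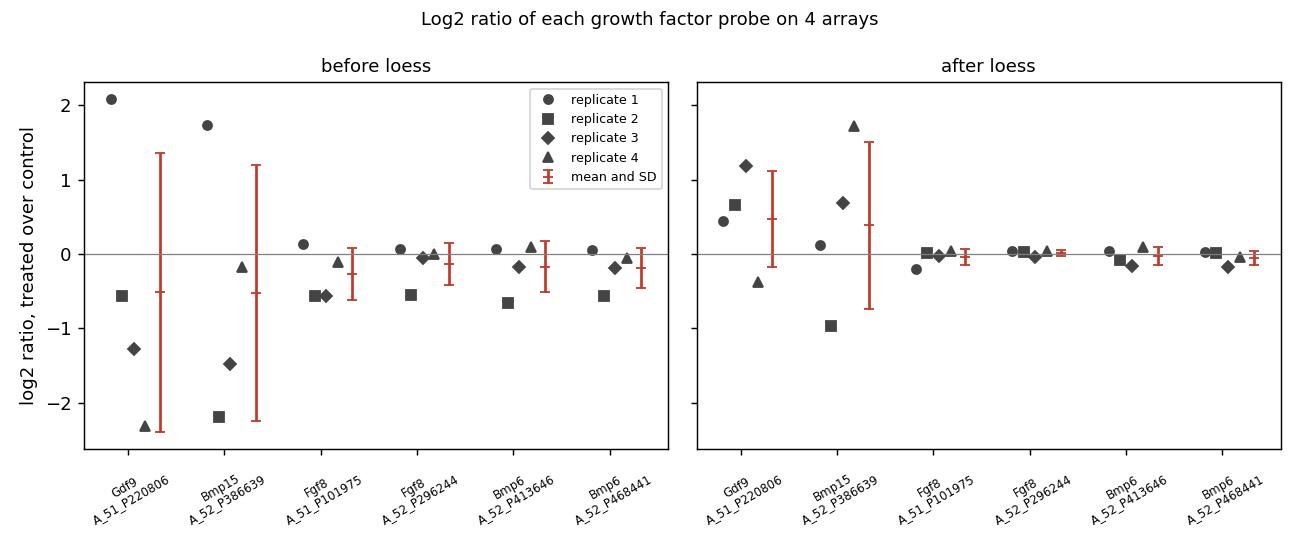
Log2 ratio of treated over control for the 6 probes, before loess (left) and after (right), with 1 symbol per array and the mean with its SD in red. Between the panels Gdf9 changes sign on replicates 2 and 3 and Bmp15 on replicates 3 and 4. The points of the other probes lie close to 0 on the right, and the offset in the background correction draws dim spots there. Fgf8 A_52_P296244 and Bmp6 A_52_P468441 were well above background in no channel, and Bmp6 A_52_P413646 in a single channel. The points of these dim probes are ratios at or near background and do not measure a lack of change.

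Fgf8, the fibroblast growth factor of this group, was dim, and no difference between treated and control pools was resolved. Averaged over its spots, probe A_51_P101975 had an intensity of 62.2, 52.9, 44.3 and 50.1 in treated pools on replicates 1 to 4, and of 57.1, 58.2, 75.7 and 57.8 in control pools. The median local background of these spots was 33.5 to 37.5 in the treated and 25.5 to 28.0 in the control channel. In medians over spots the signal exceeded this background by less than the offset of 50 that the correction adds, and such an offset draws ratios toward 0. A share of at least 0.5 of its spots passed as above background on 3 arrays in treated and on 4 in control pools. The log2 ratio was -0.20, 0.018, -0.020 and 0.040 on replicates 1 to 4, with replicate 1 the lowest. The mean was -0.041 ± 0.11 (SD, n = 4), a ratio of 0.972 with a 95% interval of 0.737 to 1.28, and limma's adjusted p was 0.98. That interval rests on limma's SE of 0.16, which exceeds the SD over the arrays because it draws on the spread of all genes tested. The sign turned without replicate 1 (0.013) and when the sign of replicate 1, the array that stood apart, was reversed (0.060).

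The repeated Fgf8 spots measured the error within an array. After leaving out 1 spot each on replicates 1 and 3 for outlier marks, the SD between spots was 0.068, 0.022, 0.098 and 0.094 on replicates 1 to 4. The standard error of each array's mean over its spots was 0.0070 to 0.033, and the SD between the array means was 0.11. After loess, 0 of 9 spots on replicate 1 were above 0, and they ran from -0.32 to -0.10. On replicate 2, 8 of 10 were above 0, on replicate 3 it was 3 of 9, and on replicate 4 it was 7 of 10. The spots of replicates 2, 3 and 4 thus straddled 0. Before loess the means over spots were 0.14, -0.56, -0.56 and -0.11 on replicates 1 to 4. The fit removed 0.34, -0.58, -0.54 and -0.15. The shared sign of the spots of replicate 1 thus came with the fit, as their mean was above 0 before it. With the scanner software's processed signals, which carry no offset, the same spots gave means of -0.50, 0.68, -0.66 and -0.17. The SD between spots of an array was then 0.64 on average, which gave standard errors of 0.079 to 0.28 for the array means, and the SD between array means was 0.60. With either kind of signal the arrays spread more widely than the standard errors of their own spots. The other Fgf8 probe, A_52_P296244, was not well above background in any channel of any array, with intensities of 35.4 to 43.0 in treated and 38.3 to 47.4 in control pools, and no ratio is given for it.

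**Figure D3:**
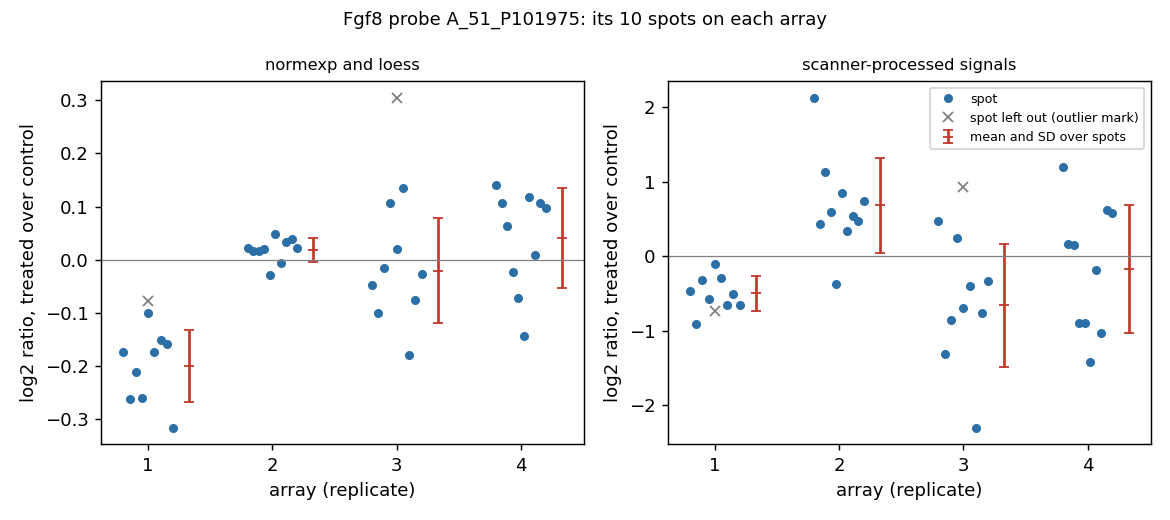
Log2 ratio of each of the 10 spots of Fgf8 probe A_51_P101975 on every array, after normexp and loess (left) and from the scanner software's processed signals (right), on vertical axes of different range. Red marks the mean and SD over the spots used, and grey crosses are spots left out. The spots straddle 0 on replicates 2, 3 and 4 in both panels, with all but 1 of replicate 2 above it on the right.

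Bmp6, a bone morphogenetic protein, was at or near the detection limit. Probe A_52_P468441 was not well above background in either channel of any array, with intensities of 35.3 to 38.5 in treated and 40.4 to 43.1 in control pools. Probe A_52_P413646 had 38.3, 42.2, 34.3 and 39.1 in treated pools and 37.9, 70.6, 37.1 and 38.0 in control pools on replicates 1 to 4. Its spot in the control pool of replicate 2 was the single detection of Bmp6 among 8 channels. The bound on its ratio came out under 1, so no fold is given, and Bmp6 was not among the genes tested. The log2 ratio of A_52_P413646 on replicate 2 was -0.65 after normexp before loess, -0.075 after loess and -3.12 from processed signals. The value of that single spot thus depended on the processing, and which step accounts for this was not tested. A level below what these probes detect is not absence of the transcript.

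By root-mean-square difference over the 4 arrays, the gene whose log2 ratios came nearest to those of Gdf9 among 6024 named genes was Ddx19b (0.18), followed by Stk35 (0.22), Abcc4 (0.22), Erlin2 (0.23) and Fbxl7 (0.23). Nearest to Bmp15 were Ppp6c (0.21), Pcgf1 (0.33), Paics (0.35), Etv1 (0.36) and Fbxw14 (0.38). Ppp6c had -0.17, -0.87, 0.91 and 1.56 on replicates 1 to 4. Nearest to Fgf8 were Ninj1 (0.028), Mdga2 (0.033), Zmynd8 (0.041), Bpifb6 (0.042) and Dlgap2 (0.043). Of the genes with 4 values, 96.2% had a larger SD over the arrays than Fgf8 (0.11), so its distances cannot be set beside those of Gdf9 and Bmp15. These values share the arrays, and they describe 4 points for each gene.

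Of the receptors that bind ligands of this family, 5 of 13 on the array were tested, 1 above and 4 below 0, and 0 passed. Their median log2 ratio was -0.14, beside -0.016 for all genes tested. Bmpr2, the type II receptor for GDF9 and BMP15, had 1.61, 0.36, -1.37 and -2.07 on replicates 1 to 4. It fell on either side of 0 with a mean of -0.37 ± 0.64 (limma's SE, n = 4), and its other tested probe had a mean of 0.52. The type I receptors Bmpr1a, Bmpr1b, Acvr1b and Tgfbr1 had means of 0.09, -0.03, -0.20 and -0.14. Bmpr1b was well above background on 2 treated and 3 control arrays, and passed the filter through the control channel alone. Without replicate 4 the ratio of Acvr1b was 0.31 and that of Bmpr2 0.20, and without replicate 3 that of Tgfbr1 was 0.15 and that of Bmpr1b 0.082.

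SMAD proteins, which carry the receptor signal to the nucleus, and their cofactors had 10 of 14 genes tested, 7 above and 3 below 0, with 0 passing and a median of 0.14. Smad4, the partner shared by the receptor-regulated SMADs, had 0.26, 0.33, 0.35 and 0.82 on replicates 1 to 4. It was above 0 on all arrays, with a mean of 0.44 ± 0.18 (limma's SE, n = 4, with limma's adjusted p = 0.93). Its other probe had 0.46. With median centring it was at -0.22. Smad1 and Smad5 of the BMP branch had -0.25 and 0.31, and the second probe of Smad5 had the opposite sign, -0.23. Smad2 and Smad3 of the activin and GDF9 branch had -0.08 and 0.12. Skil, a repressor of SMAD transcription, had -1.81, -0.30, -0.77 and -0.58, with a mean of -0.86 ± 0.29 (limma's SE, n = 4, with limma's adjusted p = 0.93). The mean became 0.039 with the sign of replicate 1 reversed and -0.55 without that array.

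**Figure D4:**
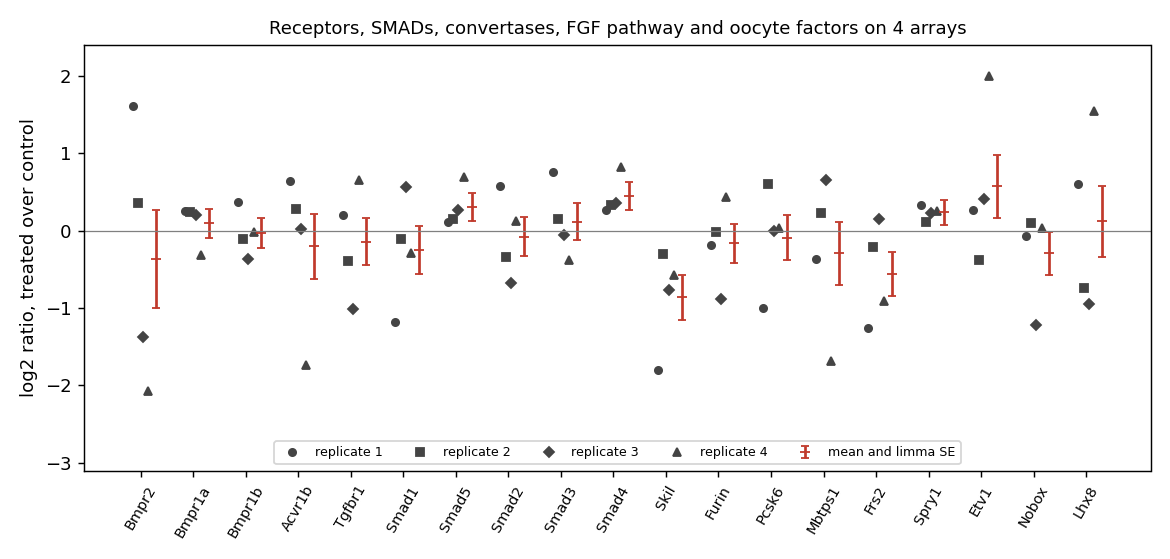
Log2 ratio of treated over control on 4 arrays (1 symbol each) for receptors, SMADs, convertases, FGF pathway genes and oocyte transcription factors, with the mean and limma's SE in red. Most genes have arrays on both sides of 0, and Smad4, Smad5 and Spry1 lie above 0 on all 4, though their means turn below 0 with median centring. Skil lies below 0 on all 4, and its mean is 0.039 with the sign of replicate 1 reversed.

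Proprotein convertases, the proteases that cut such precursors, had 3 of 9 genes tested, all below 0, with a median of -0.17 and 0 passing. Furin had -0.18, -0.02, -0.89 and 0.43 on replicates 1 to 4, a mean of -0.17. Pcsk6 and Mbtps1 had means of -0.09 and -0.30. Without replicate 3 Furin was at 0.075, without replicate 1 Pcsk6 was at 0.21, and without replicate 4 Mbtps1 was at 0.17. Among secreted or membrane antagonists, 7 of 16 were tested, 3 above and 4 below 0, with a median of -0.07 and 0 passing. Crim1, which holds BMPs at the cell surface, had a mean of -0.47, and Chrd (chordin, a BMP antagonist) and Fstl3 (a follistatin-like activin antagonist) had 0.59 and 0.51. Each depended on which arrays entered: over fits without 1 array Crim1 ran from -0.59 to -0.25, Chrd from 0.31 to 1.15 and Fstl3 from 0.22 to 1.01, the highest values of the last 2 being those without replicate 1. Follistatin itself, Fst, was not well above background on any array. Of the other ligands of the family 5 of 24 were tested, 3 above and 2 below 0, with a median of 0.22 and 0 passing. Bmp5 had a mean of -0.79, Tgfb2 0.50 and Gdf1 0.40. Without replicate 1 Gdf1 was at 0.81 and without replicate 3 at 0.18, and Tgfb2 was at 0.26 without replicate 2.

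For the FGF pathway, 13 of 21 receptors, adaptors and feedback genes were tested, 8 above and 5 below 0, with a median of 0.07 and 0 passing. Spry1, a feedback inhibitor of receptor tyrosine kinases, had 0.33, 0.12, 0.23 and 0.26 on replicates 1 to 4, close together and all above 0. Its mean was 0.23 ± 0.16 (limma's SE, n = 4, with limma's adjusted p = 0.93), but with median centring it was at -0.40. Frs2, the docking protein of FGF receptors, had a mean of -0.56, and Etv1, an ETS factor downstream of them, 0.57. Without replicate 1 Frs2 was at -0.32, and without replicate 4 Etv1 was at 0.097. Fgfr1 was not well above background on any array, and Fgfr2 was on 1 array in the treated channel. Other FGF ligands had 4 of 14 tested, all above 0, with a median of 0.19 and 0 passing. Fgf18, Fgf17 and Fgf1 had means of 1.05, 0.28 and 0.11, and Fgf18 had 3.32 on replicate 3 against -0.03 to 0.86 on the others. Without replicate 3 these ligands were at 0.29, 0.095 and 0.033. Fgf1 was well above background on 3 treated and 2 control arrays, and passed the filter through the treated channel alone.

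Of the oocyte transcription factors known or held to act upstream of these genes, 2 of 9 on the array were tested. Nobox, a homeobox factor that controls Gdf9 and Bmp15, had -0.07, 0.09, -1.22 and 0.03 on replicates 1 to 4, with replicate 3 far below the others and a mean of -0.29. Without replicate 3 it was at 0.019. Lhx8, another homeobox factor, had a mean of 0.12 with arrays from -0.94 to 1.55. Figla, which activates zona and other oocyte genes, was well above background in the control channel of 1 array only. Other oocyte signals and surface proteins had 8 of 14 tested, 2 above and 6 below 0, with a median of -0.32 and 0 passing. Igf2r, Il7 and Igf1r had means of -0.85, -0.76 and -0.32, with the other probe of Igf1r at 0.05. Igf2r was well above background on 1 treated and 3 control arrays, and Il7 on 2 treated and 4 control arrays. Both thus passed the filter on dim probes through the control channel alone, and their ratios rest in part on treated signals near background. With processed signals Igf2r was at -3.22 and Il7 at -1.87. Without replicate 3 Igf2r was at -0.47 and Il7 at -0.42. Kit, the receptor for the granulosa cell factor KITL, had 1.49, -0.12, -1.12 and 0.71 on replicates 1 to 4, and a mean of 0.24.

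Genes known to respond to these factors do so in cumulus cells. Of 10 genes of cumulus expansion 2 were tested and 0 passed, Tnfaip6 with a mean of -0.17 and Ptgs2 with 0.08. Of 15 genes of glycolysis, amino acid uptake and cholesterol synthesis that oocyte factors are known to raise in cumulus cells, 6 were tested, 1 above and 5 below 0, with a median of -0.14 and 0 passing. Ldha, lactate dehydrogenase A, had -1.76, -1.52, -0.33 and -0.83 on replicates 1 to 4, below 0 on each. Its mean was -1.11 ± 0.29 (limma's SE, n = 4), with limma's adjusted p at 0.93. Sqle, an enzyme of cholesterol synthesis, had a mean of -0.46. With the sign of replicate 1 reversed Ldha was at -0.23 and Sqle at -0.040.

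The label of the cells was checked against markers. Of 16 oocyte markers on the array 13 were tested, among them Zp3, Oosp1, Dppa3, Ooep and Kit, and 0 passed. Zp2 was well above background in 1 control channel only and Nlrp5 in none. Summed over the oocyte list, intensity ran from 26795 to 232624 in treated and from 69690.2 to 205599 in control pools. This sum and those below add mean spot intensity without background subtraction, over the brightest probe of each listed gene. Genes that were not detected thus add background, and the share of it in the low sums was not worked out. Of 23 cumulus and granulosa markers 8 were tested and 0 passed, with a median log2 ratio of 0.0029, and their summed intensity ran from 1470.3 to 3530.2 in treated and from 1663 to 6724 in control pools. Of these markers Nr5a1 and Tnfaip6 were well above background in both channels of all 4 arrays. Cyp19a1 and Ptgs2 passed on 3 treated and 4 control arrays, Nr5a2 and Hsd3b1 on 3 of each, Inha on 2 and 4, and Hsd17b1 on 0 and 3. Amh, Fshr, Lhcgr, Cyp11a1, Star, Foxl2 and Kitl did not pass in any channel. Of 9 blood and immune markers 2 were tested and 0 passed, Hba-a1 with a mean of 0.28 and Srgn with -0.52. Both were well above background in both channels of all 4 arrays, and Srgn was below 0 on each. Their median was -0.12, and the summed intensities of the list were 917 to 6102 in treated and 2379 to 8376 in control pools. Of 13 markers of oviduct, endothelium and stroma 4 were tested and 0 passed, with a median of 0.09 and sums of 991 to 1931 and 1086 to 3197. Acta2, Vim, Krt8 and Kdr had means of 0.83, 0.02, 0.16 and -0.23. Acta2 and Vim were well above background in both channels of all 4 arrays. The part of these cells in the growth factor values was not tested.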

How the data were processed

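Each array compared 1 treated with 1 control pool. The deposited scanner files give mean spot intensity and median local background intensity per channel, and the submitters' processing notes name Agilent Feature Extraction 9.5.1.1. Processed signals and their log10 ratio are in the same deposited files, and the authors' deposited value table equals that log10 ratio to within 5.0e-10. From the intensities, limma 3.58.1 (R 4.3.3) applied normexp with an offset of 50, then loess within each array with control spots at weight 0. Control spots and spots with outlier marks were left out, none was saturated, and repeated spots were averaged by probe. A probe was kept (8108 were) where 1 channel was well above background on 3 or more arrays. With several spots, a share of 0.5 of them had to be. Each gene took its brightest kept probe (6917 genes). Names came from the files and RefSeq (GRCm38.p6, names only): 5029 by accession, 816 by symbol, 379 by synonym, and 693 kept the file's name. A moderated test (lmFit, eBayes) set the mean log2 ratio against 0, and p-values were adjusted by Benjamini-Hochberg over all genes tested. The code was first tested on simulated data. The authors' table was an alternative.

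Members, gene lists and tests were chosen with earlier results of these data known. Named were all member probes, the 3 tested genes of smallest p in each pathway list, a short fixed list, and the 5 genes nearest to each tested member. Clone and accession names were left out of the latter, and 1 gene that the rule names is not reported here. All arrays were on 1 slide with 1 scan.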

Additional observations from a re-analysis of the deposited data

Results flagged for a closer look

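In 5 of 54 sets of 4 array values, a single array lay far from the rest, and by chance about 5% of sets would. The median of the other FGF ligands was 0.87 on replicate 3 and lay between 0.016 and 0.050 elsewhere. Bmpr1a, a type I BMP receptor, had a log2 ratio of -0.32 on replicate 4 and between 0.21 and 0.25 elsewhere. Fgf1 had 0.32 on replicate 3, against 0.0087 to 0.063. Nobox had -1.22 on replicate 3, against -0.07 to 0.09, and Smad4 had 0.82 on replicate 4, against 0.26 to 0.35. None of the 6 growth factor probes was among them.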

How the results depend on the processing

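Under 15 alternatives, 0 genes passed in limma in either direction, with 134 to 930 under an unadjusted p of 0.05, and the lowest adjusted p was 0.053 with the sign of replicate 1 reversed. Over these settings limma's lowest adjusted p was 0.39 for Gdf9, 0.77 for Bmp15 and 0.87 for Fgf8. Each ratio is itself the paired comparison of 2 pools. With a single slide and scan, no block for them could be fitted. The scaling of average intensity (Aquantile) leaves ratios as they are. Bmp6 had no value with both channels required, with the mean over probes, with array weights or with the eBayes settings, and Fgf8 none with both channels required. Over the fits without a replicate, Gdf9 ran from 0.24 to 0.76, Bmp15 from -0.056 to 0.84, Fgf8 from -0.067 to 0.013, and the difference of Gdf9 and Bmp15 from -0.42 to 0.81. Bmpr2 ran from -1.03 to 0.20, Acvr1b from -0.48 to 0.31, Mbtps1 from -0.61 to 0.17, Pcsk6 from -0.32 to 0.21, Lhx8 from -0.36 to 0.47, Ptgs2 from -0.25 to 0.33, Smad1 from -0.52 to 0.055 and Kit from -0.18 to 0.69. Processed signals and the authors' value table both gave -0.044 for Gdf9, -0.14 for that difference and -0.70 for Ptgs2. Bmp6 probe A_52_P468441, above background on no array, so that its ratios are of background signal, had -0.39 and -0.41 there, against -0.048 after normexp and loess and -0.073 to -0.0035 without 1 array. With the sign of replicate 1 reversed, Fgf8 was at 0.060, the difference at -0.066, Bmpr1a at -0.031, Frs2 at 0.072, Kit at -0.50, Lhx8 at -0.18, Pcsk6 at 0.41, Skil at 0.039, Smad1 at 0.34 and Smad3 at -0.26. Median centring moved the median of all genes to -0.34. It put Gdf9 at -0.37, Bmp15 at -0.38, Bmpr1a at -0.12, Fgf17 at -0.081, Kit at -0.35, Lhx8 at -0.47, Ptgs2 at -0.30, Smad3 at -0.38, Smad4 at -0.22, Smad5 at -0.17, Spry1 at -0.40 and Tgfb2 at -0.16. Array weights gave -0.26 for Bmp15, 0.047 for Acvr1b, -0.13 for Kit, -0.45 for Lhx8, 0.086 for Mbtps1, 0.28 for Pcsk6 and -0.077 for Ptgs2. The mean over probes gave 0.077 for Bmpr2. Signs also turned without replicate 1 for Fgf8 (0.013), Kit, Lhx8 (-0.044), Pcsk6, Smad1 and Smad3 (-0.096). Without replicate 2 they turned for the difference (-0.42) and Smad2 (0.0081). Without replicate 3 they turned for the difference (-0.047), Bmpr1b (0.082), Furin (0.075), Nobox (0.019), Smad2 (0.12), Tgfbr1 (0.15) and Tnfaip6 (0.0012). Without replicate 4 they turned for Bmp15, Acvr1b, Bmpr2, Lhx8, Mbtps1 and Ptgs2. The causes were not tested. Bmp6 and the second Fgf8 probe are limited by signal over background.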
